A study of Homo sapiens with 12 samples.

Results

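The 107 transcript rows described here are those on which monosome footprints, the mRNA fragments shielded by single ribosomes, were more than 1 log2 unit higher in cells given 10 µM girolline than in both solvent libraries. They were taken from 58798 monosome rows with a coding length, after rows with identical counts had been merged. A row had to average at least 10 CPM (counts scaled to a common library total) over the 4 monosome libraries, and 16518 rows did. The members were 0.648% of these, on the scale log2(CPM + 0.1), and they fell into 58 groups of neighbouring rows, called loci here. Since members were chosen by the counts of the 10 µM and DMSO libraries, their differences at 10 µM are given as a description and were not tested.

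Cells were HEK293T Flp-In, a wild-type human embryonic kidney line with a landing site for transgenes. Exposures of 2 h were to DMSO, the solvent, in 2 libraries (replicates 1 and 2), to girolline at 1 µM in 1 library, or to girolline at 10 µM in 1 library. All results below come from these 4 monosome libraries, and the RNA-seq and disome libraries of the same exposures, 8 in all, were not used here because their transcript IDs differ. A higher footprint count can therefore reflect more mRNA or more ribosomes per mRNA, and these cannot be told apart. Counts summed over all rows ran from 21570489 at 1 µM to 38074691 at 10 µM, and neighbouring rows with identical counts point to reads counted in more than 1 isoform. The DMSO libraries differed by more than counting noise (chi-square per degree of freedom 1.69), and none of the 16518 rows differed by more than 1 log2 unit between them.

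Girolline is a sponge natural product, and the series title ties it to eIF5A, a translation factor that binds between the ribosomal P and E sites and helps slow peptide bonds form. eIF5A works only once a lysine has been turned into hypusine, which is built from the polyamine spermidine by DHPS and DOHH. Polyamine synthesis depends on ODC1, which makes putrescine, and AMD1, which makes the aminopropyl donor for spermidine and spermine. Both enzymes are short-lived proteins whose synthesis is held under tight feedback by polyamines.

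Of the 58 loci, 16 held a row that could be named from its transcript ID and coding length. The 16 genes were AMD1, IFRD1, JUN, DUSP1, TMED2, PMAIP1, YWHAH, DENR, ARPC2, PNRC1, PPP1CC, RBM17, SNX3, TSC22D3, CHUK and ODC1. In each of them the 1 µM library lay above both DMSO libraries and the 10 µM library above all of the others. The rule set 10 µM above both DMSO libraries, and choosing rows low in DMSO favours higher 1 µM values too. This order is therefore a description. At 1 µM, 9 of the 16 named rows were higher by the test described below, beside 2.79% of rows of at least 10 CPM. That test shares its DMSO libraries with the rule that chose these rows. TMM scaling, which lowers the 10 µM differences, left 11 of the 16 as members and lost RBM17, SNX3, TSC22D3, CHUK and ODC1, and DESeq2 size factors also lost PNRC1 and PPP1CC. No deposited table gives gene names for these IDs, so the other 42 loci stay unnamed.

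**Figure D1:**
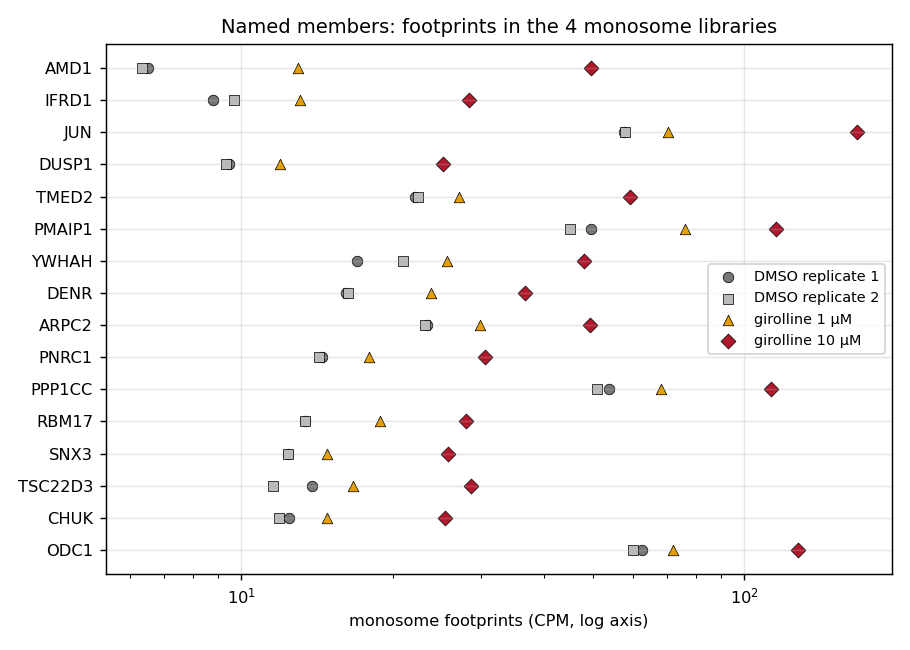
Monosome footprints in CPM (horizontal log axis) of the 16 named genes, 1 row per gene, ordered from the top by the smaller difference at 10 µM. Each point is 1 library; the 10 µM point is the rightmost for every gene, and AMD1 moved furthest, from 6.51 and 6.33 CPM with DMSO to 49.5 CPM.

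Among the polyamine enzymes, AMD1 stood highest of all 107 members. Its 335-codon row held 151 and 175 counts in the DMSO libraries, 221 at 1 µM and 1504 at 10 µM, which is 6.51, 6.33, 12.9 and 49.5 CPM. The 10 µM library was 2.91 and 2.95 above the DMSO libraries on the log2(CPM + 0.1) scale. The 1 µM library was tested with edgeR's quasi-likelihood (QL) test, with p-values adjusted by Benjamini-Hochberg (BH) over all tested rows. AMD1 rose there by 1.01 log2 units (SE 0.14; edgeR QL, BH-adjusted p = 9.25e-08). DESeq2 gave AMD1 a fold change of 1.01 log2 units and no adjusted p. The locus held 3 member rows, of 335, 463 and 266 codons, which may share reads, and they were the only members more than 2 above both DMSO libraries.

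ODC1, the first enzyme of the pathway, lay close to the threshold and was no member under TMM scaling, where its smaller difference was 0.97. Its row held 1453 and 1660 counts in the DMSO libraries, 1230 at 1 µM and 3873 at 10 µM, or 62.6, 60.0, 72.1 and 128 CPM. The differences at 10 µM were 1.03 and 1.09. At 1 µM ODC1 had a fold change of 0.23 log2 units (SE 0.08) that did not pass (edgeR QL, BH-adjusted p = 0.0944), and passed when only rows of at least 10 CPM were tested (adjusted p = 0.0223).

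The other polyamine and hypusine genes were not members. All 12 genes of that list could be named, and 8 of them had at least 10 CPM. AMD1 and ODC1 were the 2 members, beside 0.648% of all rows at that floor. The median of the smaller 10 µM difference over the 8 was 0.06, from -0.80 to 2.91, beside -0.05 over all rows of at least 10 CPM. AMD1, at 6.51 and 6.33 CPM with DMSO, passed the floor only through the girolline libraries. The median and the calls at 1 µM are therefore a description. At 1 µM 2 of the 8 were called higher and 0 lower by edgeR, beside 2.79% higher and 2.15% lower among all rows of at least 10 CPM. The first was AMD1 and the other SMS. SMS, which makes spermine, had 43.2 and 37.7 CPM with DMSO, 49.8 at 1 µM and 65.9 at 10 µM, and rose at 1 µM by 0.30 log2 units (SE 0.08; edgeR QL, BH-adjusted p = 0.0348). EIF5A itself had 517 and 539 CPM with DMSO, 558 at 1 µM and 476 at 10 µM. SAT1, the enzyme that acetylates polyamines for breakdown, had 18.7 and 15.9 CPM with DMSO and 10.7 at 10 µM, and AZIN1, an antizyme inhibitor, had 6.12 and 6.98 CPM with DMSO and 3.72 at 10 µM.

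JUN and DUSP1 were the members among immediate early genes, the genes that cells switch on fastest after a stimulus. JUN, a subunit of the AP-1 transcription factor, held 1336 and 1600 counts in the DMSO libraries, 1204 at 1 µM and 5078 at 10 µM on 332 codons. In CPM these were 57.6, 57.8, 70.5 and 167, so the DMSO libraries nearly coincided and the 10 µM library was 1.54 and 1.53 above them. JUN rose at 1 µM by 0.29 log2 units (SE 0.08; edgeR QL, BH-adjusted p = 0.0189), a call that DESeq2 did not make (adjusted p = 0.129).

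DUSP1, a phosphatase that switches off MAP kinases, held 219, 258, 204 and 764 counts in the same order of libraries. These were 9.44, 9.33, 12.0 and 25.2 CPM, with differences of 1.41 and 1.42 at 10 µM. Its log2 fold change of 0.35 (SE 0.14) at 1 µM did not pass (edgeR QL, BH-adjusted p = 0.237).

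Most other immediate early genes lay under the floor of 10 CPM that the rule sets. Of 20 that kept a named row after identical rows were merged, 4 had at least 10 CPM (JUN, DUSP1, MYC and IER2) and 16 did not. The members JUN and DUSP1 stand beside 0.648% of all rows at that floor. FOSB (3, 5, 5 and 9 counts) and EGR2 (2, 2, 2 and 3) could be named but are not among the 20. DUSP1, at 9.44 and 9.33 CPM with DMSO, passed the floor only through the girolline libraries. MYC, a growth-promoting transcription factor, had 50.8 and 46.3 CPM with DMSO, 57.4 at 1 µM and 87.2 at 10 µM, which was 0.78 and 0.91 above DMSO. Among the 16 below the floor, ATF3, CCN1, CCN2, EGR1 and JUND were also more than 1 above both DMSO libraries at 10 µM. The share of all rows under the floor that did so was not counted. CCN2 held only 40, 55, 57 and 167 counts, and EGR1 28, 42, 35 and 104. JUND, a further AP-1 subunit, had 5.26 and 4.56 CPM with DMSO, 5.21 at 1 µM and 15.4 at 10 µM, and ATF3, a stress-induced transcription factor, had 3.32, 4.09, 4.16 and 10.6 CPM. FOS held only 8 and 23 counts with DMSO and 39 at 10 µM, so its level was not determined at this depth.

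IFRD1 and YWHAH also rose at 1 µM. IFRD1, a transcriptional co-regulator, held 204 and 267 counts in the DMSO libraries, 223 at 1 µM and 862 at 10 µM, or 8.79, 9.65, 13.1 and 28.4 CPM. IFRD1 passed the floor of 10 CPM only through the girolline libraries, so its 1 µM value is given as a description. It was 1.68 and 1.55 above DMSO at 10 µM and rose at 1 µM by 0.50 log2 units (SE 0.14; edgeR QL, BH-adjusted p = 0.0293). YWHAH, the eta form of the 14-3-3 phosphoprotein-binding family, held 393, 579, 437 and 1459 counts, or 16.9, 20.9, 25.6 and 48.0 CPM. Its DMSO libraries stood 0.30 apart, the widest gap among the 16, and at 1 µM it rose by 0.42 log2 units (SE 0.11; edgeR QL, BH-adjusted p = 0.0114).

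The promoters of DUSP1, IFRD1 and YWHAH share a sequence, shown here because the rule did not use it. RefSeq promoter sequences (GRCh38.p14) were found for all 16 named genes, and the 250 bases before the start were searched on both strands for 3 motifs chosen with the results known. TGACGTCA, the palindromic cAMP response element, was in 3 of the 16 genes, beside 1.65% of 35116 promoter entries. TGACTCA, the AP-1 element, was in DENR and IFRD1, beside 4.20% of entries, and TGATGCAA, a C/EBP-ATF element, was in 0 of 16, beside 0.772%. No motif of the 3 contains another. The stretches around TGACGTCA are chr5:172771283-172771350 (minus strand), chr7:112450378-112450445 and chr22:31944336-31944403 (plus strand), with the motif in capitals. Some genes have more than 1 entry, and whether any factor bound these letters was not measured.
DUSP1: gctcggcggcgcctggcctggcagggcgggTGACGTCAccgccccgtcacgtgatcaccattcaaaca
IFRD1: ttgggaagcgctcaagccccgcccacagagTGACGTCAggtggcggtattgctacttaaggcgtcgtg
YWHAH: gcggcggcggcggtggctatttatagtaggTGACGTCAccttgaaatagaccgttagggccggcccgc

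PMAIP1, which encodes the BH3-only protein NOXA that promotes apoptosis, was among the members that already moved at the lower dose. Its 137-codon row held 1151 and 1244 counts in the DMSO libraries, 1299 at 1 µM and 3514 at 10 µM, or 49.6, 45.0, 76.1 and 116 CPM. It was 1.22 and 1.36 above DMSO at 10 µM and rose at 1 µM by 0.69 log2 units (SE 0.08; edgeR QL, BH-adjusted p = 2.72e-11). DESeq2 also called this row (adjusted p = 3.14e-05). A further named PMAIP1 member row, of 55 codons, held 913, 941, 1059 and 2895 counts and was 1.27 and 1.48 above DMSO at 10 µM. At 1 µM that row rose by 0.76 log2 units (SE 0.08; edgeR QL, BH-adjusted p = 5.71e-12), and the 2 rows may share reads.

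DENR and RBM17 rose at 1 µM. DENR, which helps ribosomes recycle and reinitiate after short upstream reading frames, had 16.1 and 16.3 CPM with DMSO, 23.8 at 1 µM and 36.6 at 10 µM. It rose at 1 µM by 0.56 log2 units (SE 0.11; edgeR QL, BH-adjusted p = 0.000256). RBM17, a splicing factor, had 13.4, 13.4, 18.9 and 28.0 CPM, and rose at 1 µM by 0.49 (SE 0.12; edgeR QL, BH-adjusted p = 0.0063). At 10 µM these genes were 1.16 to 1.18 and 1.06 above DMSO, close together for each pair of controls.

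PPP1CC rose at 1 µM, while CHUK, TSC22D3 and PNRC1 did not pass on their named rows. PPP1CC, a catalytic subunit of protein phosphatase 1, held 1247 and 1406 counts in the DMSO libraries, 1166 at 1 µM and 3426 at 10 µM, or 53.7, 50.8, 68.3 and 113 CPM. It was 1.07 and 1.15 above DMSO at 10 µM. Its locus had 6 member rows and all 6 rose at 1 µM, the highest-count row by 0.38 log2 units (SE 0.08; edgeR QL, BH-adjusted p = 0.000488). Rows of a locus may share reads and are not separate evidence.

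CHUK, the kinase IKK-alpha of NF-kappa-B signalling, had the longest named row (746 codons), with 288, 329, 253 and 772 counts, or 12.4, 11.9, 14.8 and 25.4 CPM. TSC22D3, a glucocorticoid-induced leucine zipper protein, held 320, 320, 284 and 867 counts, or 13.8, 11.6, 16.6 and 28.5 CPM. PNRC1, a nuclear receptor coactivator, held 336, 395, 306 and 926 counts, or 14.5, 14.3, 17.9 and 30.5 CPM. None of the named rows of these 3 genes passed at 1 µM, with fold changes of 0.29, 0.40 and 0.32 log2 units (edgeR QL, BH-adjusted p = 0.315, 0.0716 and 0.175). An unnamed 135-codon member row in the TSC22D3 locus rose by 0.43 log2 units (SE 0.11; edgeR QL, BH-adjusted p = 0.0128).

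ARPC2 rose at 1 µM, and the named rows of TMED2 and SNX3 did not pass. TMED2, a cargo receptor between the endoplasmic reticulum and Golgi, held 513 and 620 counts in the DMSO libraries, 463 at 1 µM and 1801 at 10 µM, or 22.1, 22.4, 27.1 and 59.3 CPM, and was 1.42 and 1.40 above DMSO at 10 µM. SNX3, a sorting protein of early endosomes, had 12.4, 12.4, 14.8 and 25.7 CPM, and ARPC2, a subunit of the actin-nucleating Arp2/3 complex, had 23.4, 23.2, 29.8 and 49.3 CPM. In the 1 µM library ARPC2 rose by 0.36 log2 units (SE 0.10; edgeR QL, BH-adjusted p = 0.0275), while TMED2 (0.28, adjusted p = 0.143) and SNX3 (0.25, adjusted p = 0.405) did not pass. An unnamed 117-codon member row in the TMED2 locus rose by 0.41 log2 units (edgeR QL, BH-adjusted p = 0.0388).

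Over all members, the question was whether they differed at the lower dose. The 1 µM comparison shares its DMSO libraries with the contrast that chose them, and the 1 µM level counts toward the floor of 10 CPM, so the rule itself favours higher values and the counts below are a description. By the edgeR QL test at a BH-adjusted p under 0.05, 46 of 107 rows were higher at 1 µM and 0 lower. Of all 55409 rows tested, 1.05% were higher and 0.729% lower, and of the 16518 rows of at least 10 CPM 2.79% and 2.15%. At an unadjusted p under 0.05, edgeR had 95 members higher and 0 lower. Among the 16518 rows of at least 10 CPM it had 1464 higher and 1969 lower. DESeq2 called 5 members higher and 0 lower, beside 184 higher and 78 lower over all rows. It gave an adjusted p for only 11 of the 107 members, and how many of all rows had one was not counted. The 5 calls were the 137-codon PMAIP1 row, rows of PPP1CC that may share reads, and an unnamed 39-codon row. By edgeR with 1 row per locus 27 of 58 were higher, and 31 loci had at least 1 such row. Each dose has 1 library, so the spread came from the DMSO pair alone, and the labels do not say that the pair came from separate cultures.

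The size of the 1 µM difference varied widely between members. Against the DMSO mean its median was 0.39 on the log2(CPM + 0.1) scale, from -0.20 to 1.00, beside a median of -0.02 over all rows of at least 10 CPM. In 103 members the 1 µM library lay above both DMSO libraries and in 1 below both, a tally that the rule partly fixes. Rows were therefore also chosen by the 10 µM library and DMSO 1 alone, with the floor on their mean, and 1 µM was set against DMSO 2. Of 194 such rows 179 were higher at 1 µM and 15 lower, with a median of 0.34, beside a median of -0.01 and 46.8% higher over the 16704 rows at that floor. With the DMSO libraries exchanged, 222 of 232 rows were higher and 10 lower, with a median of 0.30, beside -0.01 and 46.6%. These values were added after the data had been seen, and the rows were still chosen by the 10 µM library. Rows were not joined into loci here and may share reads, so they are not separate evidence. The tallies are a description and were not tested. At 10 µM the smaller difference had a median of 1.12, an upper quartile of 1.22 and 10 members over 1.5. Members just inside the threshold had smaller differences of 1.002, 1.004 and 1.008, and rows just outside 0.998, 0.999 and 0.999.

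**Figure D2:**
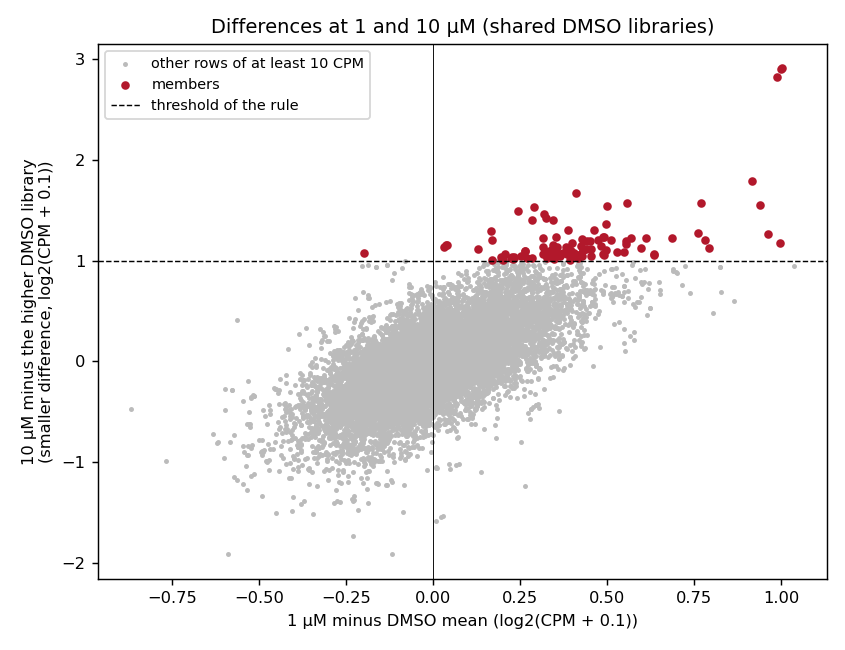
Each point is 1 of 16518 rows of at least 10 CPM; the horizontal axis is 1 µM minus the DMSO mean and the vertical axis the smaller of the 10 µM differences from the DMSO libraries, both on the log2(CPM + 0.1) scale. The 107 members (red) lie above the dashed threshold of 1, with 1 µM values from -0.20 to 1.00; both axes use the same DMSO libraries.

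Among unnamed members, the largest difference was on ENST00000497899.6, a row of 242 codons. It held 175 and 169 counts in the DMSO libraries, 220 at 1 µM and 802 at 10 µM, or 7.54, 6.11, 12.9 and 26.4 CPM. Its smaller difference at 10 µM was 1.79. The row passed the floor of 10 CPM only through the girolline libraries, so its 1 µM value is given as a description. At 1 µM it rose by 0.92 log2 units (edgeR QL, BH-adjusted p = 3.11e-06).

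Many members were short coding rows. The median coding length was 194 codons, beside 360 over all rows of at least 10 CPM. Under 100 codons were 15 of the 107 members, and 41 (38.3%) had from 100 to under 200, beside 6.31% and 22.1% of all those rows. With 1 row per locus the median was 231.5 codons, and the classes of 100 to under 200 and 300 to under 500 codons held 29.3% each. All rows of at least 10 CPM were not reduced in this way, so these values have no like background. None of the members had 1000 codons or more, beside 12.6%. The floor shapes this comparison, since 40 members had a DMSO mean under 10 CPM and passed it only through the girolline libraries. Of rows with a DMSO mean of at least 10 CPM, the 67 members had a median of 190.0 codons and all 16260 a median of 362.

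**Figure D3:**
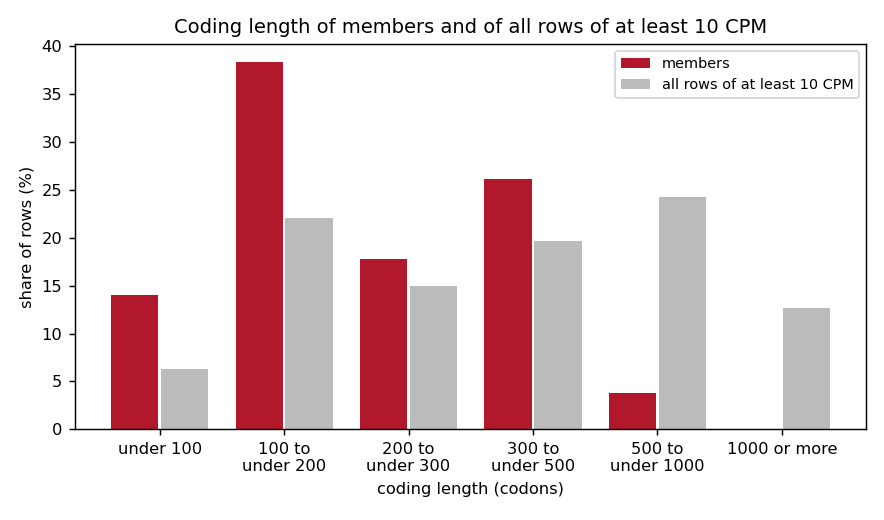
Share of rows (%) in 6 classes of coding length, for the 107 members (red) and all 16518 rows of at least 10 CPM (grey). Of the member rows 38.3% lay at 100 to under 200 codons (29.3% with 1 row per locus), and the class of 1000 codons or more held none of them. The rows in grey were not reduced to 1 row per locus.

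Several unnamed short members lay near the longer row of a gene that could be named. There were 21 such member rows near 12 genes, within 12 rows of them in the deposited order. Only longer rows with at least as many counts in every library were paired with them. None of the longer rows was a member, but this follows from the search. It took only loci without a name, and a named member row that near would have named the locus. The longer rows were thus bound to stay under the threshold. Whether the short rows are isoforms of these genes is not recorded in the files, so they carry no name here.

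A 39-codon row near RPL27, a protein of the large ribosomal subunit, held 1045 and 1154 counts in the DMSO libraries, 1421 at 1 µM and 4013 at 10 µM. The 137-codon RPL27 row held 11907, 12232, 8472 and 13711 counts. The short row was 1.55 and 1.66 above DMSO at 10 µM, and RPL27 differed from DMSO by -0.18 and 0.03. At 1 µM the short row rose by 0.94 log2 units (SE 0.08; edgeR QL, BH-adjusted p = 2.38e-18), while RPL27 had 0.05 log2 units (SE 0.06; adjusted p = 0.79).

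The rows near RPL38, a small protein of the same subunit, also lay apart. At 10 µM the direction of such gaps in the smaller difference was fixed by the search. The 21-codon row held 702, 898, 913 and 2943 counts and was 1.68 and 1.57 above DMSO at 10 µM, while the 71-codon RPL38 row held 8778, 10231, 6970 and 13863 counts and was 0.27 and 0.30 above it. At 1 µM the short row rose by 0.77 log2 units (SE 0.08; edgeR QL, BH-adjusted p = 1.04e-11) and RPL38 had 0.12 (SE 0.06; adjusted p = 0.342). The differences between short and longer rows were not tested.

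Near RPL27A both rows moved at 1 µM. The 42-codon row rose by 0.96 log2 units (SE 0.08; edgeR QL, BH-adjusted p = 3.84e-17) and the 149-codon RPL27A row by 0.40 (SE 0.06; adjusted p = 3.27e-07). At 10 µM they were 1.26 and 1.34, and 0.38 and 0.49, above DMSO. Ribosomal protein genes have many near-identical pseudogene copies, so counts of their rows are uncertain.

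CCNG1, a p53-induced cyclin, had 0.88 above both DMSO libraries at 10 µM on its 296-codon row, beside 1.23 and 1.28 on a 168-codon member row near it. DEK, a chromatin protein, had 0.83 and 1.04 on its 376-codon row, beside 1.24 and 1.22 on a 286-codon member row. YY1, a zinc finger transcription factor, had 0.35 and 0.46 on its 415-codon row, beside 1.10 and 1.35 on a 118-codon member row.

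Near CIZ1, a nuclear matrix protein, the rows hardly differed. The member row of highest count there was 1.13 and 1.00 above DMSO at 10 µM and the 899-codon CIZ1 row 1.15 and 0.97, so the threshold fell between them. CCNC, the cyclin of the Mediator kinase module, had 0.74 and 0.70 at 10 µM on its 284-codon row, beside 1.30 and 1.15 on a 229-codon member row near it. That short row had 0.03 log2 units at 1 µM (edgeR QL, BH-adjusted p = 0.974) and turned to -0.04 without DMSO replicate 1.

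**Figure D4:**
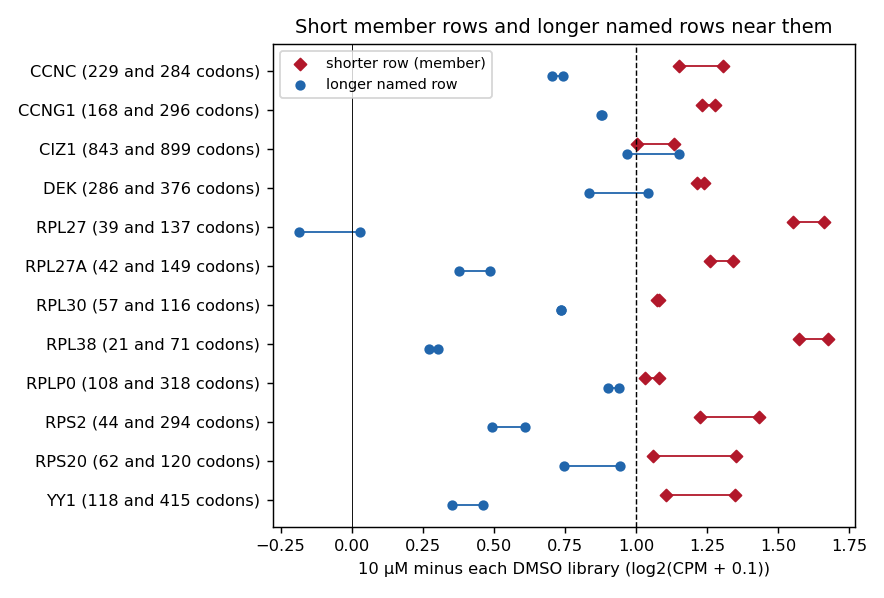
Difference between 10 µM and each DMSO library (horizontal axis, log2(CPM + 0.1)) for a short member row (red) and the longer named row near it (blue), with the gene and both coding lengths at the left; the 2 points of a row are the 2 DMSO libraries. RPL27 and RPL38 show the widest gaps, and the rows near CIZ1 overlap. The search fixed that the smaller difference lay above the threshold for the short row and not for the longer row.

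Genes of the stress lists held no members at the floor of 10 CPM, where members were 0.648% of all rows. At that share lists this small would seldom hold any, so the absence of members is a description. Over all rows at that floor the median smaller difference at 10 µM was -0.05. Of 13 named genes of the integrated stress response, which lowers translation initiation and raises ATF4, 9 had at least 10 CPM, and their median smaller difference at 10 µM was -0.33. Below the floor, DDIT3, a pro-apoptotic factor of this response, was 1.65 and 1.44 above DMSO at 10 µM on only 4, 6, 5 and 23 counts. ATF4 had 10.9 and 10.4 CPM with DMSO, 11.0 at 1 µM and 9.55 at 10 µM, and ASNS, an ATF4 target, fell at 1 µM by 0.26 on the log2 scale (SE 0.07; edgeR QL, BH-adjusted p = 0.0310). Of 11 named heat shock genes 10 had at least 10 CPM, with a median of -0.47, and edgeR called 3 of them lower and 0 higher at 1 µM, beside 2.15% and 2.79% of all rows of at least 10 CPM. HSPA8, a constitutive HSP70 chaperone, had 1228 and 1237 CPM with DMSO, 1052 at 1 µM and 474 at 10 µM. Of 12 short-lived regulators 9 had at least 10 CPM, with a median of 0.30, and MCL1, an anti-apoptotic BCL2 relative, had 48.5, 46.4, 58.1 and 65.4 CPM.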

How the data were processed

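Monosome footprints were measured in 2 DMSO libraries and 1 library at each girolline dose. The authors deposited, per library, a transcript ID, a length and raw read counts that were not normalized. According to the submitters' processing notes, the build was hg38 and STAR 2.7.0a and CASAVA 1.8 were named, with no role stated; the counting tool, annotation and treatment of reads matching several places are not given in the sources used here. Coding length was taken as the deposited length plus 10 codons, an inference from the tables, so counts may leave out coding ends. Of 227264 rows, 100283 had a coding length, the others summing to 0 counts. Rows with identical counts were merged and CPM computed on the merged total.

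Counts were tested with edgeR 4.0.16 (R 4.3.3), TMM scaling, filterByExpr, the quasi-likelihood test and Benjamini-Hochberg adjustment at 0.05 over all tested rows, in 3 groups. With 1 residual degree of freedom, the spread came from the DMSO pair and each dose library was assumed to share it. The code was tested on simulated data. DESeq2 1.42.0, other scalings, filters, pseudocounts and left-out DMSO libraries were alternatives.

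A gene was named only where its transcript ID was known to the analyst and the coding length fitted; most names were recalled with the length in view, so the fit is no independent check; the planned match to RefSeq protein lengths and the lists of ribosomal, histone and mitochondrial genes were not run, since no table used here pairs these IDs with symbols. A few names were first prompted by a row's position, and were kept only where a further recalled ID agreed. Values are given for the named row of highest mean CPM per gene, for genes of the lists and for short rows near named genes. Loci join member rows up to 20 rows apart. Members and lists were chosen with earlier results of these data known; the locus distance, the choice with 1 DMSO library, the near-row comparison and the motifs were set after the tables were seen.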

Additional observations from a re-analysis of the deposited data

How the results depend on the processing

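The number of members rested on the CPM floor and on scaling. It was 282 at a mean of at least 5 CPM, 39 at 20 CPM, 71 with DESeq2 size factors and 58 with 1 row per locus, beside 107; with TMM it was 80, all of them among the 107, as were the 71. Leaving out a DMSO library gave 148 to 181 members, 181 without DMSO replicate 1. The median at 1 µM stayed between 0.35 and 0.42 with another pseudocount or scaling, 1 row per locus or a DMSO library left out, and was 0.34 and 0.30 where 1 DMSO library chose the rows and the other was the control. Members called higher at 1 µM were 5 with DESeq2, which left 96 of 107 without an adjusted p, and 27 with 1 row per locus, beside 46. With a DMSO library left out no residual degree of freedom remained, so those fits gave values without calls. The 229-codon row near CCNC had 0.0271 at 1 µM, -0.0435 without DMSO replicate 1 and 0.111 without DMSO replicate 2. Without DMSO replicate 1 YWHAH had 0.29 and TSC22D3 0.52 at 1 µM, and without replicate 2 0.59 and 0.27. Testing only rows of at least 10 CPM made TMED2, TSC22D3, ODC1 and the short rows near RPLP0 and YY1 pass at 1 µM. No paired analysis was possible because each dose had 1 library, and the 1 and 10 in its label are doses. Under 300 counts in a DMSO library, as in the lower-count members, counting error widens the fold changes.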
